A study of Mus musculus with 12 samples.

Results

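Promoters of 9 genes of hepatocyte growth and the cell cycle were followed in mouse liver: Ccnd1, Myc, Gadd45b, Yap1, Cdkn1a, Ccna2, Ccnb1, Top2a and Mki67. They were found by symbol in a table of 43511 promoters, where 14 entries carried these symbols, and the entry of highest mean counts scaled to sequencing depth (CPM) over the 12 libraries stood for each gene. This gave 9 of the table's 25124 symbols. All 9 passed the filter on low counts. Open chromatin was measured by ATAC-seq, in which a transposase cuts accessible DNA, on nuclei of whole liver. The mice were wild-type C57BL/6N males aged 19 to 20 weeks, on chow, dosed by gavage on 4 days and fasted for 12 h before they were killed. The 3 groups were 100 mg/kg pregnenolone 16α-carbonitrile (PCN), which activates the pregnane X receptor (PXR) of mice, 10 mg/kg atorvastatin, a cholesterol-lowering statin, and distilled water as the control. Each group had 4 libraries. The labels do not say that each library came from a single mouse, so the spread behind each p-value is that between libraries and may be partly technical. PXR was intact in all groups.

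PXR is a nuclear receptor that binds drugs and steroids and switches on genes of drug metabolism in hepatocytes, and its activation enlarges the liver of mice. Adult hepatocytes rest outside the cell cycle and can re-enter it. Entry is driven by cyclin D1 and Myc, S phase and mitosis by cyclins A2 and B1, and p21, the product of Cdkn1a, holds cells back. Yap1, the effector of the Hippo pathway, sets liver size. An open promoter is not a transcript, and many promoters of genes at rest are open.

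None of the 9 promoters changed past the threshold in any comparison. With PCN, the Myc promoter lay 1.51-fold above control and the Cdkn1a promoter at 0.751 of control, and these were the largest differences from control in each direction. The promoters of the proliferation genes Ccna2, Ccnb1, Top2a and Mki67 differed from control by at most 0.34 on the log2 scale with PCN and 0.19 with atorvastatin. Ccnd1 differed from control by -0.14 with PCN and -0.13 with atorvastatin, the second turning to 0.16 without control 3 and atorvastatin 3, and Yap1 lay close to control.

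Promoter sequences come from RefSeq tables on GRCm38.p6, in which 6 of the 9 genes matched. Those of Cdkn1a, Ccnb1, Top2a and Gadd45b are printed, and the matches in Mki67 and Yap1 are given below. Each run is the 250 bases before a transcription start, read 5′ to 3′ on the gene's strand. Capitals mark, in Cdkn1a, matches to the repeat unit of the p53 response element, and in the others CCAAT boxes (or ATTGG on the other strand) and TTTGAA or TTCGAA, the letters of the cell cycle homology region, likewise on both strands. Cdkn1a has 2 annotated starts and both are shown. The second start lies inside the gene, at chromosome 17, 29090979 to 29100722.
Cdkn1a, start 1, chr17:29090729-29090978, plus strand: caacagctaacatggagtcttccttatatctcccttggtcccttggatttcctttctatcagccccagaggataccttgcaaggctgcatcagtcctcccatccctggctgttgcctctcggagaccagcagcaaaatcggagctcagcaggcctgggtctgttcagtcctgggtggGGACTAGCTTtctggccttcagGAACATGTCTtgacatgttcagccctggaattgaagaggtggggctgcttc
Cdkn1a, start 2, chr17:29093519-29093768, plus strand: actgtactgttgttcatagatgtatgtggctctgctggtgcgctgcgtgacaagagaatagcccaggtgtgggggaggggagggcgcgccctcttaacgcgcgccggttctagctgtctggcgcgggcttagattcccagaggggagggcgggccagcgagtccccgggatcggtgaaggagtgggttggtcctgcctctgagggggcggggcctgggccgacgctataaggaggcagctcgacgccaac
Ccnb1, chr13:100786487-100786736, minus strand: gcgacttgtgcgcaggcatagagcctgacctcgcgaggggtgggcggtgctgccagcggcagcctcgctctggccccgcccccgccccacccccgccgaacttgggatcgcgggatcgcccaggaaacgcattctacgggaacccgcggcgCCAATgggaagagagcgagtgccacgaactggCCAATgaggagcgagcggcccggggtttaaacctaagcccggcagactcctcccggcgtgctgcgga
Top2a, chr11:99024190-99024439, minus strand: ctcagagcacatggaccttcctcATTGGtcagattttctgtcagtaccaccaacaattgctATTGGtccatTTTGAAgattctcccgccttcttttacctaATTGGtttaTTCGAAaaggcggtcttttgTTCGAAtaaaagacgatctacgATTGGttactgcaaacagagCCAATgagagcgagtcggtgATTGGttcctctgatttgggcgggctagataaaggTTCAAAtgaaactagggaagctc
Gadd45b, chr10:80929841-80930090, plus strand: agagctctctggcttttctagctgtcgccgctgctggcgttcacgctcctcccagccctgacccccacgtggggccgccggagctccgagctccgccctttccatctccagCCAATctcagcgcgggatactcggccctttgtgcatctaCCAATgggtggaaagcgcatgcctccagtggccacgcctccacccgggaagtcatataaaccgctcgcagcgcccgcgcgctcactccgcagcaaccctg

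The first Cdkn1a start had 2 matches to the p53 unit, 73 and 51 bases before it, and the second had 0. Of 32851 promoter windows of the same length, 7.13% held that unit. The Top2a window held 6 CCAAT boxes, 2 TTTGAA and 2 TTCGAA, the Ccnb1 window 2 CCAAT boxes, and the Gadd45b window 2. Gadd45b also held 1 TATAAA, 46 bases before its start, which is the TATA box sequence, and 1 CACGTG, the E-box bound by Myc and Max. CCAAT stood in 33.8% of all windows, TTTGAA in 16%, TTCGAA in 1.34%, TATAAA in 12.4% and CACGTG in 6.02%. The Mki67 window, not printed, held 3 CCAAT boxes and 2 TTTGAA. The Yap1 window, also not printed, held 1 CACGTG, 163 bases before its start, and 0 CCAAT boxes, TTTGAA or TTCGAA. These matches are descriptions of the letters and not measured binding.

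Total promoter counts ran from 1679054 in control 4 to 15336000.5 in atorvastatin 2, and the 9 genes had 16 to 941 counts in a library. Across promoters, control 3 and atorvastatin 3 resembled the rest least, with median correlations of 0.698 and 0.744, against 0.897 to 0.966 for each of the other 10 libraries. Values without both libraries are given for each gene. Levels below are CPM after TMM scaling. They are compared between groups for 1 gene at a time and never between genes, since the width of the promoter windows is not given in the sources used here.

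**Figure D1:**
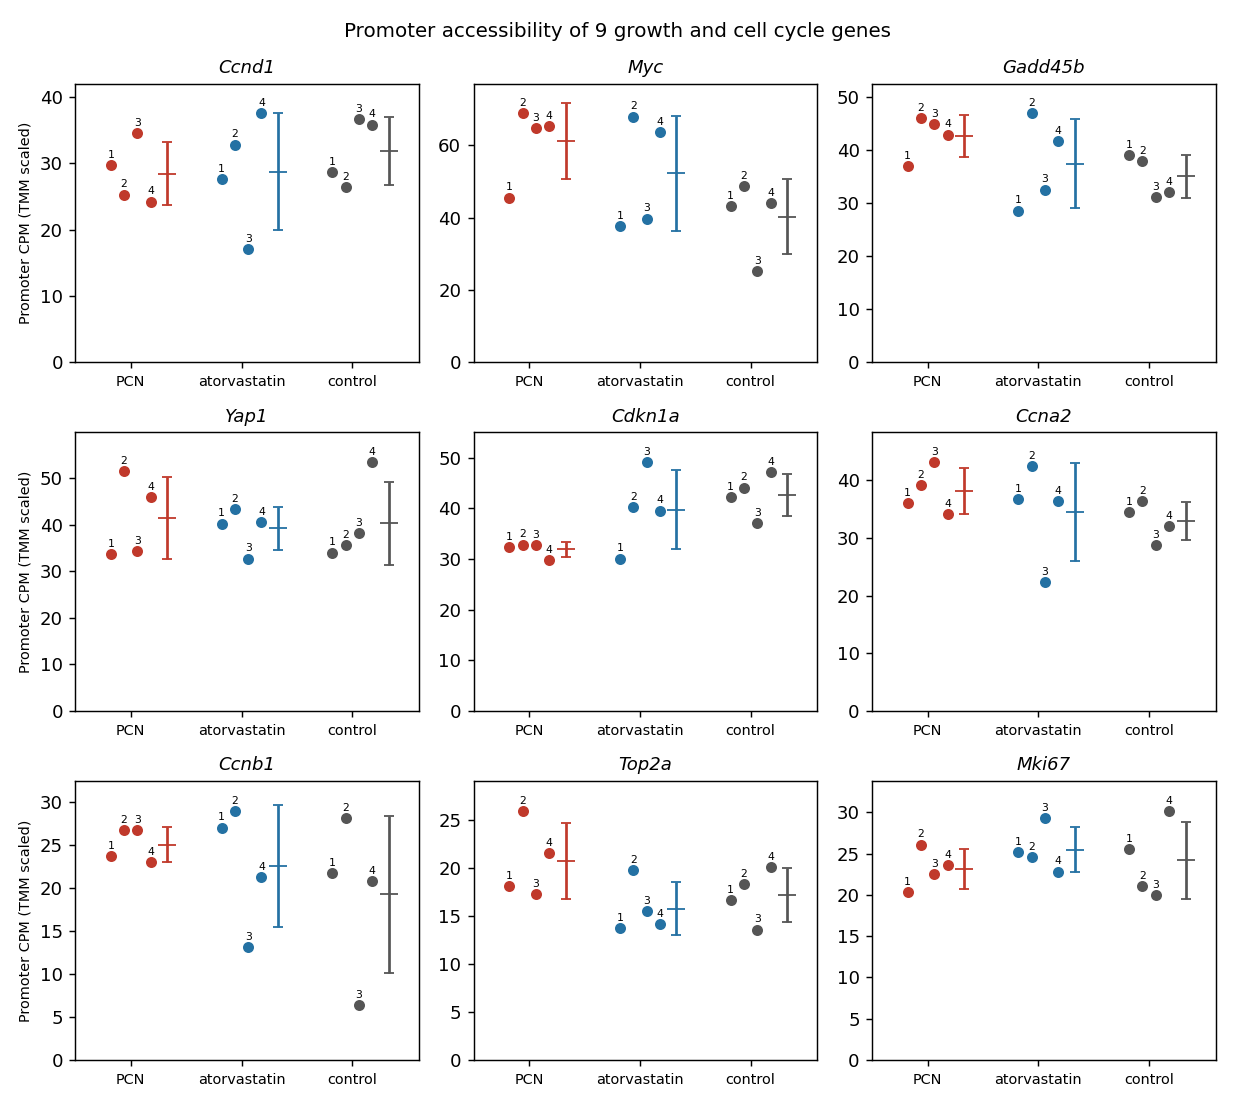
Promoter accessibility in CPM (TMM scaled) of each gene in the 4 PCN, 4 atorvastatin and 4 control libraries, numbered by library, with the mean and SD at the right of each group. For Cdkn1a all PCN libraries (29.8 to 32.9 CPM) sit below all control libraries (37.1 to 47.1 CPM), and for the other 8 genes the PCN and control libraries overlap.

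Myc is a transcription factor that raises ribosome production and cell growth. Its promoter had 45.5, 68.9, 64.7 and 65.4 CPM in PCN libraries 1 to 4, 37.6, 68.0, 39.7 and 63.7 CPM in the atorvastatin libraries, and 43.2, 48.8, 25.1 and 44.0 CPM in the control libraries. PCN libraries 2 to 4 and atorvastatin libraries 2 and 4 lay above every control, and the other 3 treated libraries lay among the controls, so the groups overlapped. The means were 61.1 ± 10.5 CPM with PCN, 52.3 ± 15.8 CPM with atorvastatin and 40.3 ± 10.4 CPM in control (SD, n = 4 each). The log2 fold change of PCN against control was 0.59 ± 0.26 (SE), with all 4 PCN libraries above the control mean, an unadjusted p of 0.0324 and a Benjamini-Hochberg adjusted p of 0.918 (edgeR, quasi-likelihood test). Control 3 was the lowest of the 12 libraries, and without control 3 and atorvastatin 3 the value was 0.43 ± 0.23, with an unadjusted p of 0.0656 (edgeR). Against control, atorvastatin gave 0.37 ± 0.26 (adjusted p = 1.00, edgeR), and 0.21 without control 3. PCN against atorvastatin gave 0.22 ± 0.26 (adjusted p = 1.00, edgeR), a difference within the spread of the libraries. Without control 3 and atorvastatin 3, atorvastatin against control gave 0.32 ± 0.25 for Myc, and PCN against atorvastatin gave 0.11 ± 0.23.

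Cdkn1a encodes p21, an inhibitor of cyclin-dependent kinases and a target of p53. Its promoter had 32.3, 32.9, 32.8 and 29.8 CPM in PCN libraries 1 to 4, 30.1, 40.3, 49.1 and 39.5 CPM in the atorvastatin libraries, and 42.2, 44.1, 37.1 and 47.1 CPM in the control libraries. Every PCN library lay below every control, while the atorvastatin libraries spread over both ranges. It was the only 1 of the 9 genes without overlap between PCN and control. Over all symbols, 1.72% of promoters lay wholly lower with PCN in this way and 3.69% did not overlap in either direction. In the other comparisons all 9 genes overlapped, and of all symbols 1.06% did not overlap between atorvastatin and control and 0.553% between PCN and atorvastatin. The means were 31.9 ± 1.45 CPM with PCN, 39.8 ± 7.77 CPM with atorvastatin and 42.6 ± 4.22 CPM in control (SD, n = 4 each). PCN against control gave a log2 fold change of -0.41 ± 0.20 (approximate 95% interval -0.81 to -0.01, unadjusted p = 0.0545, adjusted p = 0.918, edgeR). It was -0.46 ± 0.19 when control 3 and atorvastatin 3 were left out, with an unadjusted p of 0.0151 and an adjusted p of 0.905. Against control, atorvastatin gave -0.09 ± 0.20, and PCN against atorvastatin gave -0.32 ± 0.20. Leaving out those 2 libraries gave -0.26 ± 0.20 and -0.20 ± 0.18, and leaving out atorvastatin 1 turned the value of atorvastatin against control to 0.013.

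The table held a second Cdkn1a entry, of another transcript and lower level, and it does not say which of the 2 starts shown above either entry covers. Its CPM were 5.58, 1.68, 4.26 and 4.76 in the PCN libraries, 6.19, 3.47, 19.9 and 4.24 in the atorvastatin libraries, and 10.9, 6.83, 0 and 11.9 in the control libraries. The 0 in control 3 allows up to 1.2 CPM, taken as 3 counts. This entry was lower in PCN libraries than in 3 of the 4 controls, and atorvastatin 3 was the highest of the 12. PCN against control gave -0.85 ± 0.74 on the log2 scale, an SE too large to set it apart from 0 or from the main entry.

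Gadd45b is a stress-inducible protein whose gene is induced early in regenerating liver. Its promoter had 36.9, 45.9, 44.8 and 42.8 CPM in the PCN libraries, 28.5, 46.8, 32.5 and 41.6 CPM in the atorvastatin libraries, and 39.0, 37.9, 31.1 and 32.0 CPM in the control libraries. PCN libraries 2 to 4 lay above all controls and PCN 1 lay among them. The log2 fold change of PCN against control was 0.27 ± 0.21, that of atorvastatin against control 0.09 ± 0.21, and that of PCN against atorvastatin 0.18 ± 0.21. With control 3 and atorvastatin 3 left out, Gadd45b gave 0.22 ± 0.20, 0.10 ± 0.21 and 0.12 ± 0.19 in the same order. Offsets fitted by abundance turned the atorvastatin value against control to -0.012. Gadd45b and Myc were the most alike of the 36 pairs of these genes across the 12 libraries (Pearson r of log2 CPM 0.88, Spearman rho 0.92). Leaving out the libraries farthest from the Gadd45b median, atorvastatin 1 and control 3, gave r = 0.91, and the median r over the 36 pairs was 0.20. These libraries share their depth and scaling between genes, so r is a description here.

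Ccnd1 encodes cyclin D1, which starts the passage from G1 to S phase with Cdk4 and Cdk6. Its promoter had 29.7, 25.3, 34.6 and 24.2 CPM in the PCN libraries, 27.7, 32.8, 17.0 and 37.5 CPM in the atorvastatin libraries, and 28.7, 26.4, 36.7 and 35.8 CPM in the control libraries. All 3 groups overlapped, and atorvastatin 3 was the lowest library. PCN against control gave a log2 fold change of -0.14 ± 0.24, atorvastatin against control -0.13 ± 0.23, and PCN against atorvastatin -0.01 ± 0.23. The atorvastatin value lay on the other side of 0, at 0.16 ± 0.19, without control 3 and atorvastatin 3. PCN gave -0.03 ± 0.18 against control and -0.19 ± 0.17 against atorvastatin in that fit.

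Yap1 drives liver growth when the Hippo kinases do not hold it in the cytoplasm. Its promoter had 33.7, 51.6, 34.3 and 45.9 CPM in the PCN libraries, 40.3, 43.4, 32.7 and 40.5 CPM in the atorvastatin libraries, and 34.0, 35.6, 38.3 and 53.4 CPM in the control libraries. The groups overlapped over nearly their whole range, and control 4 was the highest library. The log2 fold change was 0.05 ± 0.22 for PCN against control, -0.02 ± 0.22 for atorvastatin against control and 0.07 ± 0.22 for PCN against atorvastatin. The first of these turned to -0.05 when libraries were scaled by their totals and to -0.13 with offsets fitted by abundance, so no direction is given for Yap1. Without control 3 and atorvastatin 3 the 3 values of Yap1 were 0.06 ± 0.20, 0.06 ± 0.21 and -0.0052 ± 0.19.

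Among the genes of S phase and mitosis, Ccna2 encodes cyclin A2, which acts through S phase into G2. Its promoter had 36.0, 39.2, 43.1 and 34.1 CPM in the PCN libraries, 36.7, 42.4, 22.3 and 36.4 CPM in the atorvastatin libraries, and 34.4, 36.3, 28.7 and 32.0 CPM in the control libraries. The PCN and control ranges met between 34.1 and 36.3 CPM, and the lowest libraries were atorvastatin 3 and control 3. PCN against control gave a log2 fold change of 0.21 ± 0.22, atorvastatin against control 0.06 ± 0.22, and PCN against atorvastatin 0.14 ± 0.21. The atorvastatin value against control turned to -0.02 with library totals and to -0.05 with offsets by abundance. In the fit of 10 libraries, without control 3 and atorvastatin 3, Ccna2 gave 0.15 ± 0.19 for PCN against control, 0.16 ± 0.20 for atorvastatin against control and -0.0087 ± 0.18 for PCN against atorvastatin.

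Ccnb1 encodes cyclin B1, the partner of Cdk1 at entry into mitosis. Its promoter had 23.7, 26.7, 26.7 and 23.0 CPM in the PCN libraries, 27.0, 28.9, 13.1 and 21.3 CPM in the atorvastatin libraries, and 21.7, 28.1, 6.38 and 20.7 CPM in the control libraries. Control 3 and atorvastatin 3 were far below the other 10, and those 10 overlapped across groups. The log2 fold change of PCN against control was 0.34 ± 0.30 with all libraries and 0.07 without control 3, so this library set most of it. Atorvastatin against control gave 0.19 ± 0.30, and -0.08 without control 3, and PCN against atorvastatin gave 0.15 ± 0.29. With both control 3 and atorvastatin 3 left out, the 3 values of Ccnb1 were 0.08 ± 0.18, 0.10 ± 0.19 and -0.03 ± 0.17.

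Top2a encodes topoisomerase IIα, which untangles DNA in dividing cells. Its promoter had 18.1, 25.9, 17.3 and 21.5 CPM in the PCN libraries, 13.7, 19.7, 15.5 and 14.1 CPM in the atorvastatin libraries, and 16.7, 18.3, 13.6 and 20.1 CPM in the control libraries. All groups overlapped, with PCN 2 highest. PCN against atorvastatin gave a log2 value of 0.38 ± 0.23 for Top2a (unadjusted p = 0.116, adjusted p = 1.00, edgeR), and 0.36 ± 0.19 without control 3 and atorvastatin 3. PCN against control gave 0.27 ± 0.24 and atorvastatin against control -0.11 ± 0.24, or 0.19 ± 0.20 and -0.17 ± 0.21 with those 2 libraries left out. Without PCN 2, PCN against control was 0.15 for Top2a.

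Mki67 encodes Ki-67, the protein stained to count cycling cells. Its promoter had 20.4, 26.1, 22.6 and 23.6 CPM in the PCN libraries, 25.2, 24.6, 29.3 and 22.8 CPM in the atorvastatin libraries, and 25.5, 21.1, 19.9 and 30.2 CPM in the control libraries. No group stood apart. The log2 fold change was -0.05 ± 0.21 for PCN against control, 0.09 ± 0.20 for atorvastatin against control and -0.14 ± 0.20 for PCN against atorvastatin. The first turned to 0.047 without control 4. In the fit without control 3 and atorvastatin 3, Mki67 gave -0.10 ± 0.18, -0.04 ± 0.19 and -0.06 ± 0.17, the second on the other side of 0.

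**Figure D2:**
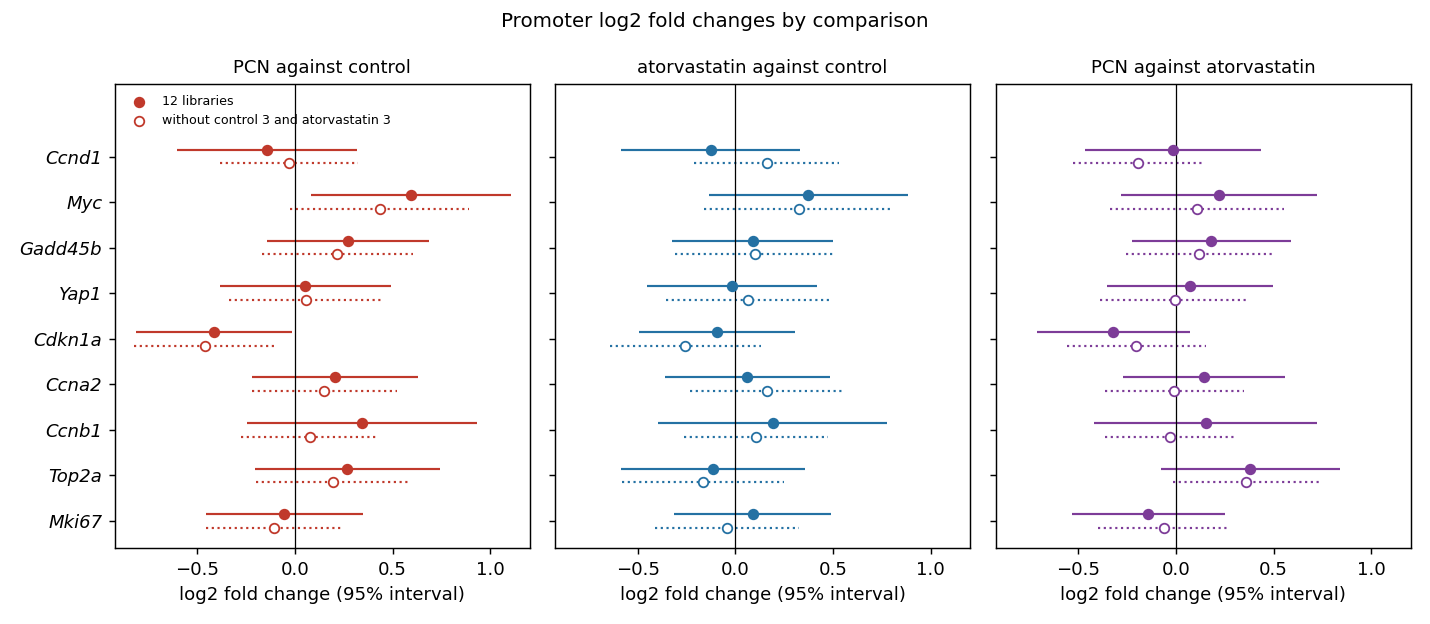
Promoter log2 fold changes with approximate 95% intervals in the 3 comparisons, with all 12 libraries (filled) and without control 3 and atorvastatin 3 (open). With 12 libraries, only the intervals of Myc (0.08 to 1.10) and Cdkn1a (-0.81 to -0.01) in PCN against control leave out 0. The intervals are normal approximations, and the unadjusted p of Cdkn1a by edgeR's test is 0.0545. Neither gene passes after adjustment.

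Counted together, 0 of the 9 promoters passed an adjusted p of 0.05 in any comparison by edgeR's quasi-likelihood test or by DESeq2. The share of all 41908 promoters called by edgeR was 0% in each comparison. At an unadjusted p under 0.05, edgeR gave 1 of the 9 for PCN against control (Myc), 0 for atorvastatin against control and 0 for PCN against atorvastatin, and 3.75%, 1.93% and 0.730% of all promoters. By direction and over 1 promoter per symbol, 1.78% had such a p on the higher side and 2.09% on the lower side for PCN against control. These shares were 1.03% and 0.939% for atorvastatin against control, and 0.0569% and 0.784% for PCN against atorvastatin. Log2 values above 0 stood at 6 of 9 for PCN against control, 5 of 9 for atorvastatin against control and 6 of 9 for PCN against atorvastatin. Over all symbols those shares were 47.8%, 56.8% and 44.4%. The 9 genes' median log2 value was 0.21, 0.06 and 0.14, against medians of -0.02, 0.05 and -0.04 over all symbols. With offsets by abundance, the 9 genes gave 5, 3 and 5 above 0 and medians of 0.02, -0.05 and 0.07. With library totals they gave 5, 4 and 6 above 0 and medians of 0.08, -0.02 and 0.10, so the atorvastatin median turned below 0 under both. The comparisons with control share the control libraries, so their values are set side by side and not read against each other. When control 3 and atorvastatin 3 were left out, the counts above 0 were 6, 6 and 3 of 9 and the medians 0.08, 0.10 and -0.0087. Those shares over all symbols were then 44.6%, 44.0% and 53.6%. The 1 gene with an unadjusted p under 0.05 for PCN against control was then Cdkn1a and not Myc. Over all promoters, 1890 of 41915 had such a p in that comparison (edgeR). In that fit edgeR called 0 of the 9 genes, and 0.0143% of all promoters for PCN against control, 0.00954% for atorvastatin against control and 0% for PCN against atorvastatin. With SEs of 0.20 to 0.30, a miss of the threshold does not show that a promoter was the same in the groups.

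Other genes of the same pathways were grouped in 6 lists. In these lists 107 genes were tested and 0 were called in any comparison. For PCN against control, log2 values lay above 0 for 78 of the 107, with a median of 0.16, against 47.8% and -0.02 over all symbols. By list, 12 of 16 genes of G1 to S control lay above 0 (median 0.13), 14 of 16 of DNA replication (0.21), and 16 of 22 of G2 and mitosis (0.17). The inhibitors and p53 response genes gave 10 of 14 (0.16), the Hippo genes and YAP targets 14 of 19 (0.16), and the growth signals 12 of 20 (0.14). For atorvastatin against control the count was 70 of 107 (median 0.10), and the highest list medians were those of DNA replication (0.19) and G2 and mitosis (0.17). PCN against atorvastatin gave 67 of 107 (median 0.06). The list medians for PCN against control depended on the scaling: with offsets by abundance they ran from -0.07 to 0.08, with 4 of 14 inhibitor genes above 0. With library totals they were 0.02 to 0.09, a drop close to that of the median over all promoters, which was -0.10 there and 0.01 with TMM. They ran from 0.08 to 0.14 without control 3 and atorvastatin 3. Counts above 0 among the 107 genes follow for PCN against control, atorvastatin against control and PCN against atorvastatin. They were 52, 56 and 45 with offsets by abundance, and 64, 56 and 55 with library totals. Medians over all promoters, in the same order, were -0.03, -0.02 and -0.01 with offsets by abundance, and -0.10, 0.0034 and -0.08 with library totals. Without control 3 and atorvastatin 3 the counts were 75, 82 and 44, against 44.6%, 44.0% and 53.6% over all symbols. There the list medians of PCN against atorvastatin ran from -0.11 to 0.0041.

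**Figure D3:**
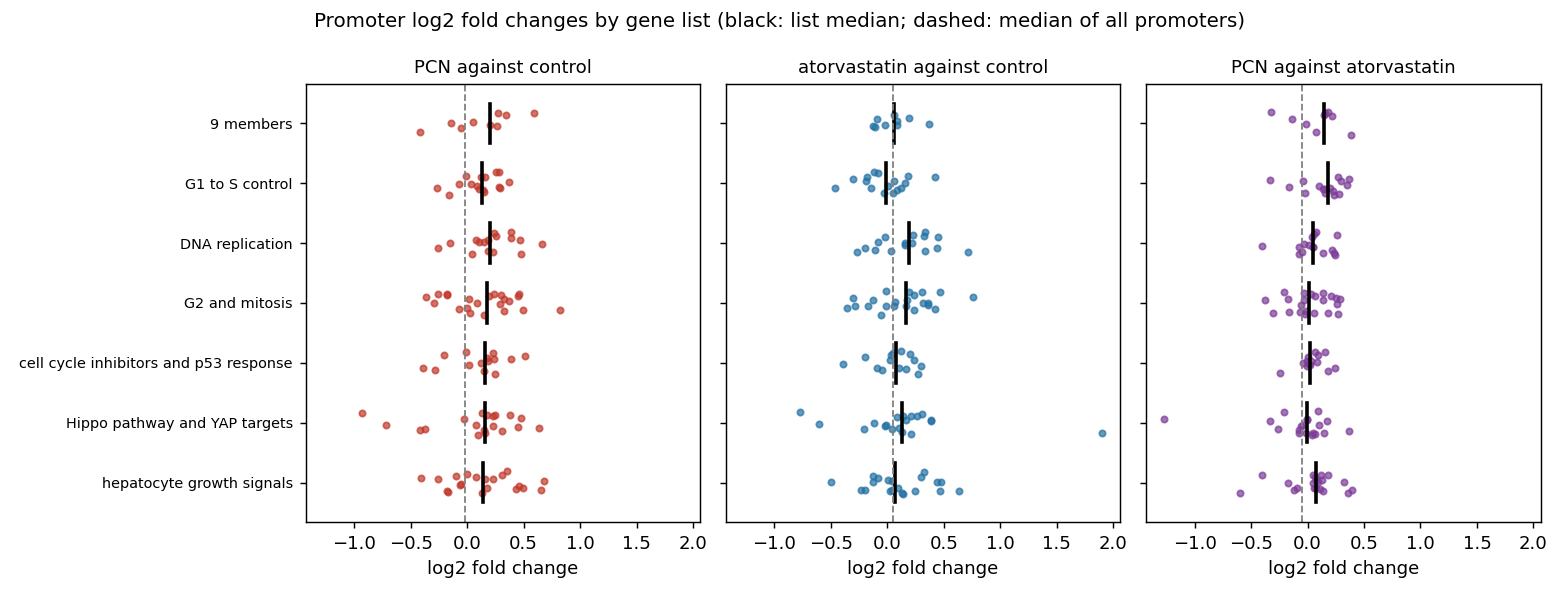
Promoter log2 fold changes of the 9 genes and of the genes in 6 pathway lists, 1 point per gene, with each list's median in black and the median of all symbols dashed. In PCN against control all list medians (0.13 to 0.21) lie to the right of the overall median (-0.02), and the points of every list spread over both sides of 0.

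The genes of smallest p in these lists were named in each comparison, and none passed the threshold. For PCN against control they were, on the higher side, Igf1, a growth factor that the liver secretes under growth hormone, and Kif11, a motor of the mitotic spindle. Igf1 averaged 28.6 ± 2.71 CPM with PCN and 17.4 ± 7.52 CPM in control (SD, n = 4 each), a log2 value of 0.65 ± 0.25. It was 0.47 without control 3, where Igf1 had 10.4 CPM. Kif11 had 25.0, 33.3, 22.8 and 26.9 CPM in the PCN libraries, 20.1, 44.2, 13.3 and 24.5 CPM in the atorvastatin libraries, and 19.9, 18.9, 7.18 and 11.9 CPM in the control libraries. Every PCN library lay above every control for Kif11, as for 1.97% of all symbols, while atorvastatin 3 lay among the controls. Its log2 value was 0.82 ± 0.32 for PCN against control (unadjusted p = 0.0157, adjusted p = 0.918, edgeR), and 0.60 without control 3. Atorvastatin against control gave 0.76 ± 0.31 for Kif11 (0.35 without atorvastatin 2). On the lower side with PCN were Lats2, a Hippo kinase, at -0.41 ± 0.22, and Axl, a receptor kinase and YAP target, at -0.71 ± 0.40. Control 3 was the highest library for both, and without it their values were -0.20 and -0.36.

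For atorvastatin against control the named genes were Kif11, Tk1, Axl and Mycl. Tk1, a thymidine kinase of S phase, averaged 56.6 ± 15.7 CPM with atorvastatin and 34.1 ± 16.6 CPM in control (SD, n = 4 each), a log2 value of 0.71 ± 0.31. It was 0.44 without control 3, where Tk1 had 11.2 CPM. Axl gave -0.78 ± 0.39, and -0.42 without control 3. Mycl, a relative of Myc, gave -0.50 ± 0.26, and -0.19 without control 3. For PCN against atorvastatin the named genes were E2f2, a transcription factor of S phase entry (0.35 ± 0.22), Met, the receptor of hepatocyte growth factor (0.35 ± 0.25), the mitotic phosphatase Cdc25b (-0.38 ± 0.24) and the YAP target Ankrd1 (-1.27 ± 0.86). Without atorvastatin 3 the Ankrd1 value was 0.74, on the other side of 0, and that of Cdc25b was -0.17, while Met gave 0.16 without PCN 4.

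Some other measures moved beside these values, and their part in them was not tested. Promoters of 10 hepatocyte markers summed to 336 to 486 CPM (median 391) with PCN, 263 to 490 (432) with atorvastatin and 219 to 424 (338) in control, lowest in control 3, and 8 of the 10 lay above 0 for PCN against control. The 7 Kupffer cell markers summed to 30.2 to 50.3 CPM (median 37.0) with PCN, 25.1 to 76.1 (43.4) with atorvastatin and 25.8 to 95.7 (49.9) in control, highest in control 3, with 1 of 7 above 0 for PCN against control. The 7 endothelial markers summed to 58.6 to 78.6 CPM (median 70.2) with PCN, 62.5 to 117 (80.0) with atorvastatin and 55.3 to 101 (82.9) in control, with 1 of 7 above 0. The 8 stellate cell markers summed to 44.1 to 71.7 CPM (57.6) with PCN, 47.6 to 110 (72.3) with atorvastatin and 61.6 to 94.1 (80.1) in control, with 1 of 8 above 0. A count of 0 in at least 1 library was found for 1 hepatocyte, 1 Kupffer cell, 0 endothelial and 1 stellate cell marker. The groups overlapped for every one of these sums. For cholangiocyte, lymphocyte, neutrophil and erythroid markers, 2 of 5, 3 of 7, 1 of 5 and 2 of 5 genes lay above 0 for PCN against control. The groups overlapped for the cholangiocyte, lymphocyte and neutrophil sums, but not for the erythroid sum. It was 56.51 to 62.86 CPM with atorvastatin, against at most 55.11 CPM in control and 52.97 CPM with PCN. For atorvastatin against control, 3 of 5 erythroid genes lay above 0. In whole liver, fewer cells of a type and less open chromatin per cell cannot be told apart. Of 10 PXR targets listed as a check on PCN, 8 lay above 0 for PCN against control (median 0.36) and 0 were called. For atorvastatin against control 8 of 10 also lay above 0 (median 0.29), and for PCN against atorvastatin 9 of 10 (median 0.06). Over all symbols the shares above 0 in these 3 comparisons were 47.8%, 56.8% and 44.4%. Cyp3a11, the classic PXR target, averaged 22.7 ± 7.98 CPM with PCN, 22.4 ± 11.0 CPM with atorvastatin and 14.6 ± 5.23 CPM in control (SD, n = 4 each). It was highest in atorvastatin 3, at 38.8 CPM. For PCN against control, 3 of 4 PCN libraries lay above the control mean, and the log2 value was 0.64 ± 0.33, or 0.43 without PCN 4.

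Across the 12 libraries, each gene was also set against every other symbol for likeness of log2 CPM. The closest were Klf9 for Myc (Pearson r 0.98, Spearman rho 0.94), Cenpl for Ccna2 (0.97 and 0.95), Bod1l for Ccnb1 (0.99 and 0.92), Ubr4 for Ccnd1 (0.94 and 0.88) and Fam219b for Gadd45b (0.94 and 0.94). Meiob for Top2a (0.90 and 0.89), Chst12 for Mki67 (0.88 and 0.78), Zfp113 for Yap1 (0.88 and 0.80) and Gm19557 for Cdkn1a (0.84 and 0.79) followed. Each is the best of 24602 symbols tested. Without the 2 libraries farthest from each gene's median, r was 0.75 to 0.95.

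Enhancer regions, as the authors' second table lists them, were assigned to the nearest protein-coding gene within 50 kb. Of 406518 regions, 114 were assigned to 6 of the 9 genes, and 53, all at Ccnd1, Myc, Yap1 and Mki67, passed the filter. Cdkn1a and Top2a had 3 regions between them and none passed, and Gadd45b, Ccna2 and Ccnb1 had none. Regions overlap, so 1 region, the one of highest mean CPM, is shown for each of the 11 loci. None of the 53 was called by edgeR in any comparison, as for 0% of the 182115 regions tested, and the smallest unadjusted p was 0.0775. Log2 values above 0 stood at 31 of 53 for PCN against control (62.0% over all regions), 41 of 53 for atorvastatin against control (58.4%) and 22 of 53 for PCN against atorvastatin (55.4%). Without control 3 and atorvastatin 3 these were 29, 32 and 16 of 53, against 51.3%, 50.9% and 50.5% of the 192874 regions then tested. In that fit 9, 3 and 3 of the 53 had an unadjusted p under 0.05, against 7.72%, 5.52% and 1.93% of all regions. Of the 9, 8 were overlapping regions of 1 locus near Mki67 and the other lay in Yap1. The 3 for atorvastatin against control lay at that same Yap1 locus, and the 3 for PCN against atorvastatin at that Mki67 locus. Of the 11 regions shown, the groups did not overlap for 0 in PCN against control, 1 in atorvastatin against control and 1 in PCN against atorvastatin, against 4.50%, 2.79% and 2.33% of all regions tested.

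The most open of them lay 3.63 kb beyond the higher-coordinate end of Ccnd1 (mm10 chromosome 7, 144943461 to 144943593, as the files give it). It had 12.3, 14.2, 6.75 and 5.02 CPM in the PCN libraries, 11.9, 10.9, 15.0 and 9.18 CPM in the atorvastatin libraries, and 10.3, 4.89, 0 and 7.60 CPM in the control libraries. The 0 in control 3 allows up to 1.62 CPM. The groups overlapped for PCN, and atorvastatin overlapped control only through control 1. The log2 value was 0.72 ± 0.59 for PCN against control and 1.01 ± 0.59 for atorvastatin against control, and 0.36 ± 0.35 and 0.48 ± 0.36 without control 3 and atorvastatin 3.

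Near Mki67, a region 19.3 kb beyond the gene's higher-coordinate end (chromosome 7, 135735728 to 135735910) had 5.93, 5.69, 4.13 and 4.30 CPM in the PCN libraries, 9.90, 8.87, 12.5 and 6.12 CPM in the atorvastatin libraries, and 16.0, 5.86, 1.08 and 5.70 CPM in the control libraries. Every PCN library lay below every atorvastatin library, and the controls spread over both. PCN against atorvastatin gave -0.88 ± 0.55 (unadjusted p = 0.120, adjusted p = 1.00, edgeR), and -0.68 ± 0.34 without control 3 and atorvastatin 3. PCN against control gave -0.58 ± 0.56, and -0.94 ± 0.35 without those libraries (unadjusted p = 0.0108), with no region called there either. The other loci near Mki67 varied in direction. A region 20.0 kb from the gene gave 0.82 ± 0.84 for PCN against control and 0.44 ± 0.85 for atorvastatin against control, and a region at 19.5 kb gave -0.17 ± 0.69 and 0.05 ± 0.70. The region 41.9 kb beyond the same end (chromosome 7, 135758334 to 135758466) had 1.48, 5.41, 2.63 and 6.09 CPM in the PCN libraries, 3.96, 4.44, 5.50 and 2.78 CPM in the atorvastatin libraries, and 2.06, 2.61, 0 and 1.90 CPM in the control libraries. Every atorvastatin library lay above every control there, and PCN 1 lay among the controls. The gap was narrow, from 2.61 CPM in control 2 to 2.78 CPM in atorvastatin 4. The 0 in control 3 allows up to 1.62 CPM. In control 4, 3 counts amount to 2.85 CPM, above that atorvastatin value, so the separation lies within counting error. It gave 1.15 ± 0.77 for PCN against control and 1.27 ± 0.76 for atorvastatin against control, and 0.76 ± 0.54 and 0.76 ± 0.55 without control 3 and atorvastatin 3. The Myc region, 45.7 kb beyond the lower-coordinate end, gave 0.53 ± 0.78 for PCN against control and 1.22 ± 0.78 for atorvastatin against control. Without control 3 and atorvastatin 3 it gave 0.15 ± 0.53 and 0.42 ± 0.55. Of 3 loci at Yap1, 1 inside the gene gave 1.02 ± 0.67 for PCN against control and 0.80 ± 0.66 for atorvastatin against control, and another inside it -0.15 ± 0.87 and -1.13 ± 0.88. That second region had 0 CPM in control 3 and in atorvastatin 3. Without these libraries the first gave 0.86 ± 0.46 and 0.93 ± 0.47, and the second -0.48 ± 0.44 and -1.01 ± 0.47. The last had an unadjusted p of 0.0375 (edgeR) and was not called.

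**Figure D4:**
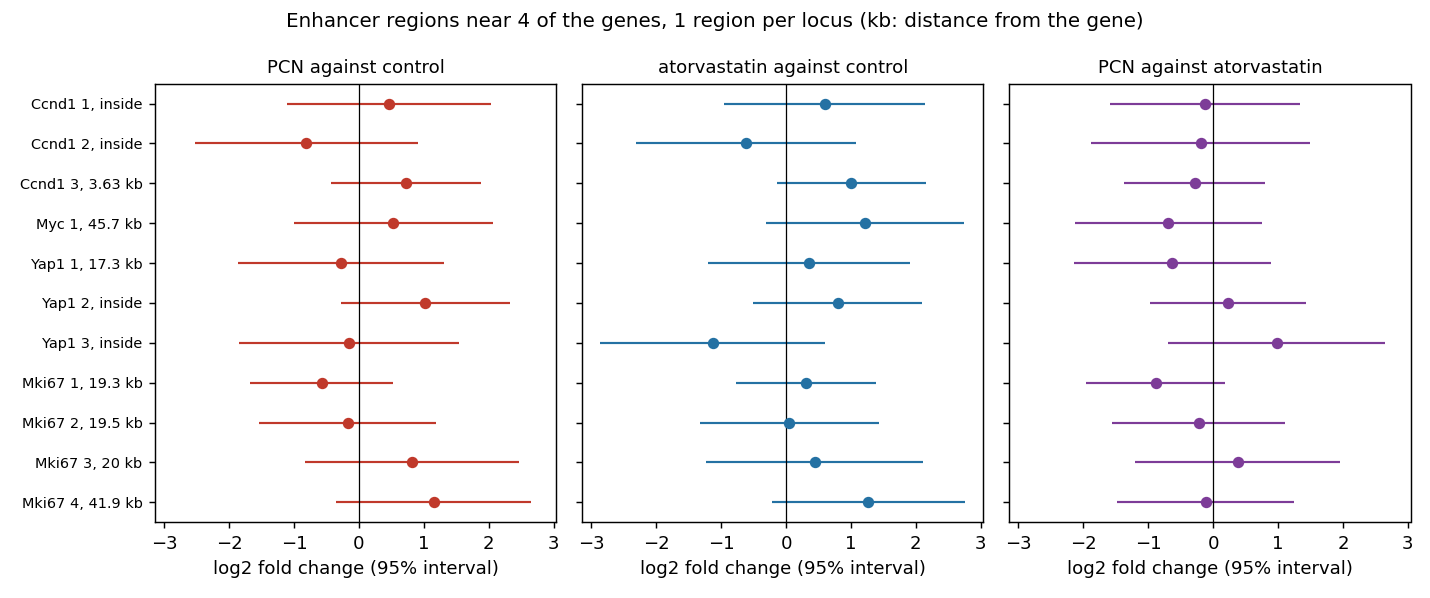
Log2 fold changes with approximate 95% intervals for 1 enhancer region at each of 11 loci near Ccnd1, Myc, Yap1 and Mki67, numbered within each gene. Every interval crosses 0, and in PCN against control 6 of the 11 values lie above 0.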

How the data were processed

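Per the labels' protocols, nuclei of frozen liver were tagmented for ATAC-seq. The authors deposited expected counts per promoter and per enhancer region, unnormalised and in steps of 0.5, the unit read from the values. Coordinates are on mm10, and Trimmomatic, HOMER 4.10, bedtools 2.30.0 and STAR 2.7.9a were used in steps not described, per the submitters' processing notes. The rules for a promoter or enhancer region and any read filter are not given in the sources used here.

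Counts were rounded and fitted, promoters and enhancers apart, with edgeR 4.0.16 under R 4.3.3. Libraries were scaled by TMM, and regions were kept by filterByExpr (minimum total 15, minimum count 10). The quasi-likelihood test used all 12 libraries in 1 model of the 3 groups without covariates. P-values were adjusted by Benjamini-Hochberg over the 41908 promoters or the 182115 enhancer regions, with 0.05 as threshold. SE was taken as |log2 fold change| / √F, an approximation, and intervals are normal 95% intervals. A prior count of 2 went into log2 CPM. Identical entries of 1 symbol were counted once only in values over 1 promoter per symbol. The 41908 promoters and the shares of all promoters count each entry. Likeness left out promoters within 10 kb. The fit was tested on simulated data. The limit for a count of 0 covers counting error only.

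The genes and lists were chosen with earlier results of these data known. Named genes were the 9, the called list genes (at most 4 per direction and comparison) or, with none called, the 2 of smallest p per direction, Cyp3a11, and each gene's most alike symbol. Alternatives were library totals, DESeq2 size factors, loess offsets by abundance (span 0.3), no filter, DESeq2 1.42.0, fits of 2 groups, a replicate block, leaving out each library, and leaving out control 3 and atorvastatin 3. The last, together with the block, was chosen after seeing the data.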

Additional observations from a re-analysis of the deposited data

Results flagged for a closer look

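In groups of 4, a library was marked when its gap to the nearest other, over the whole range of the group, passed 0.829, and 2 of 30 groups checked did. Chance alone marks about 1 group in 20. For the main Cdkn1a promoter entry, PCN 4 had 29.8 CPM and the other PCN libraries 32.3 to 32.9 CPM, a gap of 0.832 of the range. All 4 lay below every control, with or without PCN 4. For the second Cdkn1a entry, atorvastatin 3 had 19.9 CPM and the other atorvastatin libraries 3.47 to 6.19 CPM, a gap of 0.834 of the range. Atorvastatin 3 was also 1 of the 2 libraries that correlated least with the rest across promoters.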

How the results depend on the processing

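Over 21 alternatives, none of the 567 values of the 9 promoters passed the threshold, 529 kept their direction, and 38 reversed. Without control 3 and atorvastatin 3, 6 promoters were called for PCN against control and 4 for atorvastatin against control, and DESeq2 called 1 for atorvastatin against control. Enhancer calls were 0 in all 45 fits and comparisons. For PCN against control, Cdkn1a ran from -0.60 to -0.37 and Myc from 0.34 to 0.71.

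Deviations of same-numbered libraries 1 to 4 correlated at r of 0.50, -0.05, -0.04 and 0.23 between PCN and control. Between atorvastatin and control r was 0.36, -0.09, 0.06 and 0.43, and between PCN and atorvastatin 0.45, 0.10, -0.42 and 0.37. Libraries 1 and 4 had r above 0 for every pair of groups, and libraries 2 and 3 did not. The main fit used no pairing, and whether the numbers pair the libraries was not tested. With the replicate block, 0 promoters were called, Ccnd1 turned to 0.0029 for PCN against atorvastatin, and Myc and Cdkn1a gave 0.60 and -0.42 for PCN against control. With the replicate block and without control 3 and atorvastatin 3, 41915 promoters were tested. Of these, 124 were called for PCN against control and 57 for atorvastatin against control. None of the 9 was among them, which at so small a share says little about these genes. In that fit, atorvastatin against control gave 0.16 for Ccnd1, -0.047 for Mki67 and 0.066 for Yap1. PCN against atorvastatin gave -0.080 for Ccna2, -0.056 for Ccnb1 and 0.83 for Ankrd1.

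Library totals turned Yap1 to -0.050 (PCN against control) and Ccna2 to -0.022 (atorvastatin against control). Loess offsets turned Yap1 to -0.13 (PCN against control) and -0.056 (PCN against atorvastatin), and Gadd45b to -0.012 and Ccna2 to -0.046 (atorvastatin against control). Without control 3 and atorvastatin 3, atorvastatin against control gave 0.16 for Ccnd1, -0.044 for Mki67 and 0.064 for Yap1, and PCN against atorvastatin gave -0.0087 for Ccna2, -0.028 for Ccnb1, -0.0052 for Yap1 and 0.74 for Ankrd1. The cause of these turns was not tested.

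Leaving out 1 library gave, for PCN against control, -0.12 to 0.047 for Mki67 and -0.070 to 0.20 for Yap1. For atorvastatin against control it gave -0.28 to 0.067 for Ccnd1, -0.21 to 0.013 for Cdkn1a, -0.044 to 0.19 for Gadd45b, -0.066 to 0.22 for Ccna2, -0.079 to 0.45 for Ccnb1 and -0.099 to 0.13 for Yap1. For PCN against atorvastatin it gave -0.19 to 0.14 for Ccnd1, -0.0081 to 0.25 for Ccna2, -0.029 to 0.29 for Ccnb1, -0.050 to 0.16 for Yap1 and -1.64 to 0.74 for Ankrd1. Depth, 9.13 times higher in the deepest library than in the shallowest, limits low entries such as the second of Cdkn1a.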
